A study of Lolium arundinaceum with 6 samples.

Results

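The 6 unigenes described here are annotated as enzymes that remove reactive oxygen species, or that serve such enzymes, and they were followed through heat stress in leaves of tall fescue (Lolium arundinaceum, also named Festuca arundinacea), a cool-season turf and forage grass. They were chosen by name as 6 rows of a table of 179680 unigenes, and they are CSD1 (c147035_g2), CCS (c148092_g1), APX1 (c118694_g2), CAT3 (c146566_g1), RCI3 (c128946_g1) and GSTU18 (c135565_g1). A unigene is a transcript assembled from the reads with no genome, and each carries the name of its best match in another plant, mostly Arabidopsis thaliana. The question was how superoxide dismutase and ascorbate peroxidase transcripts moved against catalase transcripts over the hours of heat.

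All seedlings were wild type (WT), belonged to the variety Fire Phoenix II and were 10 days old, and their leaf RNA was sequenced on the Illumina HiSeq platform. The control group stayed at 23 °C and is labelled 0 h, and the heat groups were held at 38 °C for 2 h or for 12 h. Each of the 3 groups had 2 libraries, described by the study as biological replicates, and how many seedlings a library holds is not given in the sources used here. The same 2 control libraries served both comparisons with heat, and no control labelled 2 h or 12 h was analysed here. Hours of heat and hours of the day therefore cannot be told apart.

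Superoxide dismutase turns superoxide into hydrogen peroxide and oxygen. Ascorbate peroxidase reduces hydrogen peroxide to water at the cost of ascorbate, whereas catalase splits it in the peroxisome with no reducing partner. In leaves these enzymes handle the oxygen species that photosynthesis and photorespiration give off, and heat is known to raise the load. Class III peroxidases act mostly at the cell wall, and tau class glutathione S-transferases join glutathione to toxic compounds, lipid peroxides among their substrates.

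Library totals ranged from 6349776 to 7891567 counts, so 3 counts in 1 library correspond to 0.359 to 0.508 CPM, the counts scaled to a library of 1000000 counts after TMM, the scaling of edgeR that evens out library composition. The replicates of heat 2 h were the least alike. Over 9108 unigenes with a mean of at least 10 CPM, replicates differed on the log2 scale with an SD of 0.51 at 2 h, against 0.26 in the controls and 0.25 at 12 h. Of 9 leaf marker unigenes 8 were tested, and the photosystem I subunits PSAO (c133500_g3) and PSAK (c132391_g1) were among the abundant transcripts of every library, with control means of 5232 and 5343 CPM. At 12 h PSAO fell by 2.07 on the log2 scale (SE, the standard error, 0.14, adjusted p = 2.08e-07 from edgeR), and PSAK by 1.49 (SE 0.14, adjusted p = 3.96e-06 from edgeR). Of the 8 markers, 2 were called up, 4 down and 2 not called at 12 h. A further PSAK row, c178872_g1, had 0 and 1 counts in the controls and 32 and 14 at 12 h, and was called up. PSBS (c137256_g1) was at a log2 change of -0.98 and CAB1 c109639_g1 at -0.19, neither called. Of the chlorophyll a/b binding proteins named CAB1, c150075_g2 was at a log2 fold change of -2.18 at 12 h. Another, c138665_g1, had 1 and 0 counts in the controls and 111 and 107 at 12 h. The 2 markers called up, c178872_g1 and c138665_g1, passed the filter on low counts only through the 12 h libraries, where they were high. Of the 4 called down, CAB1 c166098_g1 passed only through the controls. Nothing is read from these calls. In leaf RNA, fewer cells of a type and less RNA per cell cannot be told apart.

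At 12 h of heat CSD1, CCS and APX1 had risen and CAT3 and GSTU18 had fallen. The sixth unigene, RCI3, was also called down, but it entered the test only through its control libraries, the group where it was high, and that call is not counted as support. The call asked for a change of 2-fold or more together with an adjusted p no higher than 0.05 in edgeR, and by that rule 48.6% of all 28005 unigenes tested changed at 12 h, 25.3% up and 23.3% down. At 2 h CCS had risen and CAT3 and GSTU18 had fallen (RCI3 was called down with the same limit), where 24.1% of all unigenes changed, 15.1% up and 8.98% down. Between 2 h and 12 h CSD1 and APX1 rose and CAT3 and GSTU18 fell, 4 of the 6, where 35.8% of all unigenes changed, 16.2% up and 19.6% down. All 6 passed the filter on low counts. With RCI3 counted, edgeR called 1 member up at 2 h against 3 lower, and 3 members up at 12 h against 3 lower. DESeq2, which did not call RCI3, gave 2 lower at each time, and in edgeR 2 were lower at 12 h without either control library or either library of heat 12 h. The median log2 fold change of the 6 was -0.29 at 2 h and 0.10 at 12 h, beside 0.05 and 6.4e-05 over all unigenes tested. The 2 h counts depended on single libraries, with 3 members up without heat 2 h replicate 1 and 1 down without heat 2 h replicate 2. Between 2 h and 12 h, 0 were down without heat 2 h replicate 1 and with DESeq2, since CAT3 and GSTU18 then lay just under or further under the 2-fold limit.

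**Figure D1:**
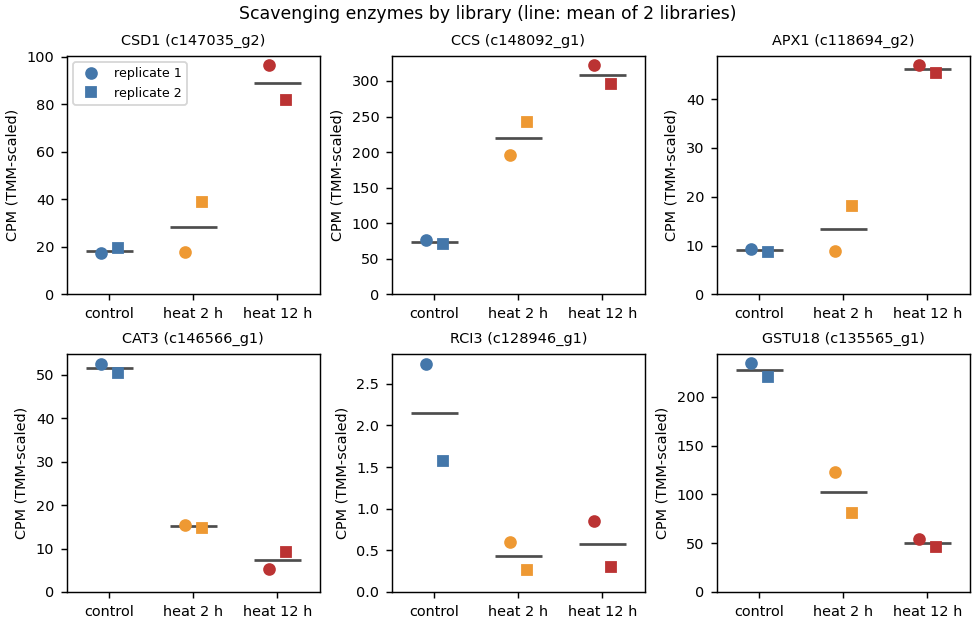
Normalised level (CPM, scaled by TMM) of each scavenging enzyme unigene in the 6 libraries, 1 panel a unigene with its own linear axis from 0. Circles are replicate 1, squares replicate 2 and lines the mean of 2 libraries. CSD1, CCS and APX1 stand highest at 12 h, CAT3 and GSTU18 fall at each step, and RCI3 stays under 3 CPM throughout.

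CSD1 is a copper/zinc superoxide dismutase that in Arabidopsis works in the cytosol, and its unigene c147035_g2 was raised late. This course is not that of every unigene with the name. Another, c147035_g1, described below, stood near 2-fold at 2 h (log2 0.97, adjusted p = 0.00294 from edgeR). It moved by only 0.25 from 2 h to 12 h. The level of c147035_g2 was 17.2 and 19.3 CPM in the control libraries, 17.9 and 38.8 CPM at 2 h, and 96.3 and 81.8 CPM at 12 h. Both libraries of 12 h were above all others, whereas at 2 h replicate 1 lay within the control range and replicate 2 above it. Against the controls CSD1 stood 1.54-fold higher at 2 h, a log2 fold change of 0.63 (SE 0.29) that did not pass (adjusted p = 0.119 from edgeR). At 12 h it rose 4.86-fold, by 2.28 on the log2 scale (SE 0.29, adjusted p = 3.57e-05 from edgeR), and it was also higher at 12 h than at 2 h, by 1.65 (SE 0.28, adjusted p = 0.000571). Without heat 2 h replicate 1 the change at 2 h was 1.09 and passed, and without replicate 2 it was -0.050. The difference between 12 h and 2 h was then 1.21 and 2.35, respectively.

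CCS, the copper chaperone that loads superoxide dismutase with its copper, was raised early. It measured 75.9 and 71.2 CPM in control leaves, 196 and 243 CPM at 2 h, and 322 and 295 CPM at 12 h. The 3 groups did not overlap. Libraries of 2 groups stood apart for 66.4% of all unigenes tested at 2 h, for 82.5% at 12 h and for 73.4% between 2 h and 12 h, so that separation alone was common. CCS rose 2.98-fold at 2 h (log2 1.58, SE 0.16, adjusted p = 1.41e-05 from edgeR) and 4.20-fold at 12 h (log2 2.07, SE 0.16, adjusted p = 6.32e-07 from edgeR). From 2 h to 12 h it gained 1.41-fold (log2 0.49, SE 0.15, adjusted p = 0.0198 from edgeR), which is under the 2-fold limit and so was not called.

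APX1 (c118694_g2), an ascorbate peroxidase that in Arabidopsis is the main cytosolic form, had nearly the same course as c147035_g2 of CSD1. Its levels were 9.34 and 8.75 CPM in control leaves, 8.85 and 18.1 CPM at 2 h, and 46.9 and 45.3 CPM at 12 h. As with CSD1, only replicate 2 of heat 2 h was above the controls, and both libraries of 12 h were above all others. The 1.48-fold difference at 2 h did not pass (log2 0.57, SE 0.29, adjusted p = 0.161 from edgeR). At 12 h APX1 rose 5.09-fold (log2 2.35, SE 0.28, adjusted p = 2.4e-05 from edgeR), and from 2 h to 12 h 3.43-fold (log2 1.78, SE 0.27, adjusted p = 0.000295 from edgeR). Leaving out heat 2 h replicate 1 gave a log2 change of 1.01 at 2 h, which passed, and leaving out replicate 2 gave -0.045. The difference between 12 h and 2 h was 1.36 without the former and 2.42 without the latter.

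CAT3, a catalase, went the other way and did so from the first time point. It stood at 52.5 and 50.4 CPM in control leaves, at 15.4 and 14.8 CPM at 2 h, and at 5.25 and 9.27 CPM at 12 h. No libraries of different groups overlapped, and the replicates of 2 h, which were far apart for CSD1 and APX1, were close here. CAT3 fell to 0.294 of the control level at 2 h (log2 -1.77, SE 0.22, adjusted p = 8.17e-05 from edgeR). At 12 h it was at 0.142 of the control level (log2 -2.81, SE 0.24, adjusted p = 1.58e-06 from edgeR). The step from 2 h to 12 h was -1.04 on the log2 scale (SE 0.25, adjusted p = 0.00531 from edgeR), close to the 2-fold limit. It was -0.67 without heat 12 h replicate 1 (adjusted p = 0.112 from edgeR), and it fell under 2-fold without heat 2 h replicate 1 (-0.996), with DESeq2 (-0.96) and with RLE size factors, DESeq2's scaling, in edgeR (-0.95).

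RCI3, a class III peroxidase first described in Arabidopsis as induced by cold, was scarce. Its 6 libraries held 17 and 12 counts in the controls, 5 and 2 counts at 2 h, and 5 and 2 counts at 12 h, or 0.269 to 2.74 CPM. The control libraries were above all heat libraries, and the 2 heat groups overlapped. It passed the filter on low counts only through the controls, the group where it was high, so the calls at 2 h (log2 -2.22, SE 0.65, adjusted p = 0.0209 from edgeR) and 12 h (log2 -1.88, SE 0.66, adjusted p = 0.0276 from edgeR) are values of the fit and are not read as a fall. No difference was called between the 2 times (0.34, SE 0.83, adjusted p = 0.76). Summed over 2 libraries, 29 counts stood against 7 and 7, a control level 4.72 times that of 2 h (95% exact counting interval 2.02 to 12.8) and 3.73 times that of 12 h (1.60 to 10.1). DESeq2 did not call it at 2 h (adjusted p = 0.104) or 12 h (adjusted p = 0.141). In edgeR the call at both times was lost without control replicate 1 (-1.82 and -1.45) and without control replicate 2 (-2.61 and -2.24). The call at 2 h was also lost without heat 2 h replicate 2 (-1.81), and that at 12 h without heat 12 h replicate 1 (-2.72) or replicate 2 (-1.27).

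GSTU18, a tau class glutathione S-transferase, declined by about the same step at each time. It was at 235 and 219.7 CPM in control leaves, 123 and 81.3 CPM at 2 h, and 53.8 and 46.5 CPM at 12 h, with no overlap between groups. Relative to the controls it fell to 0.449 of their level at 2 h (log2 -1.15, SE 0.19, adjusted p = 0.000701 from edgeR) and to 0.221 at 12 h (log2 -2.18, SE 0.20, adjusted p = 2.64e-06 from edgeR). From 2 h to 12 h it fell by a further 1.03 on the log2 scale (SE 0.20, adjusted p = 0.00134 from edgeR). Its changes at 2 h and between the 2 times lay near the 2-fold limit. At 2 h the change was -0.90 without heat 2 h replicate 2. Between the times it was -0.69 without heat 2 h replicate 1, -0.87 without heat 12 h replicate 2, -0.999 without control replicate 2, and -0.93 both with DESeq2 and with RLE size factors.

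The counts of a pair of unigenes were next divided within each library, which removes the library's scaling. Ratios between unigenes also carry their lengths, so only the change of a ratio between libraries is read. CSD1 over CAT3 was 0.329 and 0.384 in the controls, 1.16 and 2.62 at 2 h, and 18.1 and 8.76 at 12 h. On the log2 scale the means were -1.49 ± 0.16, 0.80 ± 0.83 and 3.65 ± 0.74 (SD, n = 2 each), a gain of 2.29 by 2 h and of 5.14 by 12 h, or 4.91-fold and 35.4-fold. APX1 over CAT3 was 0.179 and 0.175 in the controls, 0.575 and 1.23 at 2 h, and 8.81 and 4.85 at 12 h. Its log2 means were -2.50 ± 0.03, -0.25 ± 0.77 and 2.71 ± 0.61 (SD, n = 2 each), so that it gained 2.25 by 2 h and 5.21 by 12 h, or 4.75-fold and 37.0-fold. For both ratios the 3 groups followed each other without overlap. With 2 libraries against 2 the exact two-sided permutation test gave p = 0.333 for each step, the smallest it can give, so these ratios cannot reach the usual threshold.

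**Figure D2:**
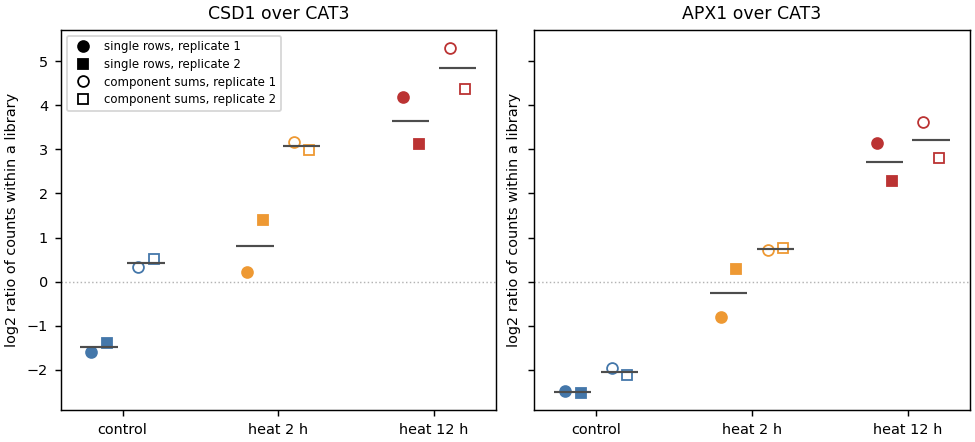
Log2 ratio of CSD1 (left) and APX1 (right) to CAT3 counts in each library, by group. Filled symbols use the single unigenes, open symbols the sum of all unigenes of a component, circles are replicate 1, squares replicate 2 and lines group means. Both ratios climb from the control to 12 h, and the gap between the 2 h replicates seen with single unigenes is almost closed with the sums.

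Of the whole gain in CSD1 over CAT3 at 2 h, the CAT3 unigene carried more. The fold changes were -1.77 for CAT3 and 0.63 for CSD1 on the log2 scale. At 12 h the values were -2.81 and 2.28. With the rows of a component summed, they were -1.78 and 0.88 at 2 h and -2.79 and 1.58 at 12 h. The change of CAT3 was then the larger at both times. CAT3 was the only unigene named as a catalase in the lists used here, so these values do not speak for other catalases. With single rows APX1 over CSD1 stayed within a narrow range. It was 0.544 and 0.455 in the controls, 0.495 and 0.468 at 2 h, and 0.487 and 0.554 at 12 h, with overlapping groups (exact two-sided permutation p = 1 at 2 h and 0.667 at 12 h). With sums this did not hold, since APX1 over CSD1 was then highest at 12 h, a log2 change of 0.85 against the controls. With single rows CCS over CSD1 passed through a peak instead. It was 4.39 and 3.67 in the controls, 10.9 and 6.25 at 2 h, and 3.34 and 3.61 at 12 h, a change of 1.04 by 2 h and of -1.25 from 2 h to 12 h on the log2 scale, each with the smallest p the exact permutation test allows (0.333). With sums CCS over CSD1 was 1.43 and 2.07 at 2 h and 1.45 and 1.55 at 12 h, so these groups overlapped. Its log2 change was then -0.20 from 2 h to 12 h, and 0.50 at 12 h against the controls. In all, 12 changes of ratios of single rows were tested, 3 for each of 4 pairs, and none can pass after adjustment.

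The assembly placed some of these enzymes in more than 1 row. Rows that share the number before _g come from the same Trinity component and can share sequence, and whether reads were split among them was not tested. The CSD1 component has a further row, c147035_g1, also annotated as CSD1 and with the larger part of the counts in the controls. It measured 49.1 and 53.2 CPM in control leaves, 121 and 79.4 CPM at 2 h, and 128 and 110 CPM at 12 h. Here the 2 h replicates stood in the reverse order to those of c147035_g2, replicate 1 being the higher. The row rose at 12 h (log2 1.22, SE 0.20, adjusted p = 0.000277 from edgeR) and was just under 2-fold at 2 h (log2 0.97, SE 0.20, adjusted p = 0.00294 from edgeR). From 2 h to 12 h it moved by 0.25 (adjusted p = 0.312 from edgeR). The share of the component's counts in c147035_g2 was 26.0% and 26.7% in the controls, 12.9% and 32.8% at 2 h, and 42.9% and 42.6% at 12 h.

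The APX1 component has 2 further rows, and in the larger of them, c118694_g3, the 2 h replicates were again in reverse order. This row, which carries no name in the tables used here, had 3.87 and 2.48 CPM in control leaves, 16.0 and 6.18 CPM at 2 h, and 19.6 and 18.4 CPM at 12 h. It rose at 2 h (log2 1.83, SE 0.42, adjusted p = 0.00547 from edgeR) and at 12 h by 2.60. c118694_g1, also annotated as APX1, was scarce, with 1 and 3 counts in the controls, 3 and 7 at 2 h and 17 and 12 at 12 h, with replicate 2 the higher at 2 h as in c118694_g2. It was called up at 12 h (log2 2.95, SE 0.72, adjusted p = 0.00381 from edgeR), but it passed the filter on low counts only through those libraries, so nothing is read from that call. The share of the component held by c118694_g2 was 69.9% and 75.3% in the controls, 35.1% and 71.8% at 2 h, and 67.6% and 69.1% at 12 h. In both components, replicate 1 of heat 2 h was the library with the lowest share in the named row.

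**Figure D3:**
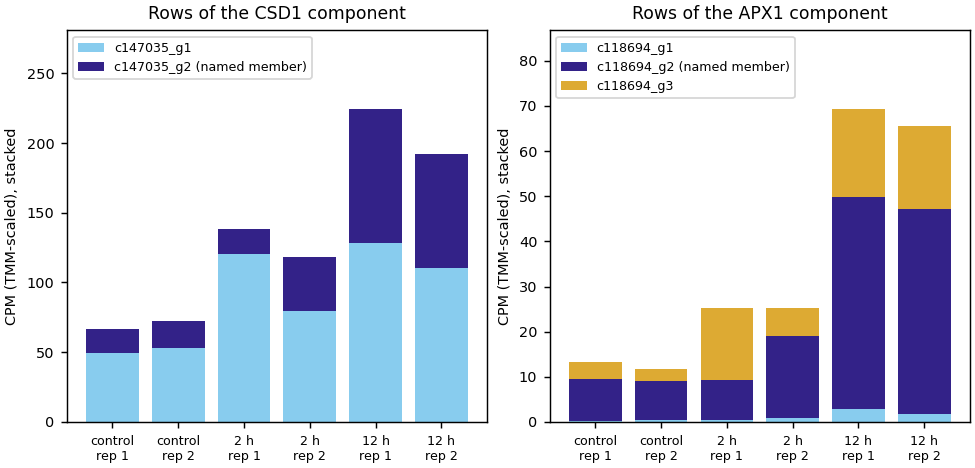
Stacked CPM (scaled by TMM) of the unigenes of the CSD1 component (left) and the APX1 component (right) in each library, from 0. Dark segments are c147035_g2 and c118694_g2. At 2 h the dark segment is smaller in replicate 1, while the full bars of the 2 replicates are nearly level for APX1 and somewhat higher in replicate 1 for CSD1.

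Summing the rows of each component before the fit, an alternative added after seeing the data, changed the picture at 2 h. The summed APX1 component measured 13.3 and 11.6 CPM in control leaves, 25.0 and 25.1 CPM at 2 h, and 69.2 and 65.0 CPM at 12 h. It rose at 2 h (log2 1.01, SE 0.18, adjusted p = 0.000944 from edgeR over 24966 components) and at 12 h (log2 2.43, SE 0.18, adjusted p = 1.8e-07 from edgeR). Of all components 14.9% rose and 8.91% fell at 2 h, and 24.7% rose and 23.2% fell at 12 h. The summed CSD1 component had 66.2 and 72.6 CPM in control leaves, 137 and 117 CPM at 2 h, and 224 and 190 CPM at 12 h. Its change at 2 h was 0.88 on the log2 scale (SE 0.16, adjusted p = 0.000816 from edgeR), under 2-fold but with both libraries above both controls. At 12 h it rose by 1.58 (SE 0.16, adjusted p = 2.6e-06 from edgeR), and the step from 2 h to 12 h fell to 0.70, under the 2-fold limit. With sums, CSD1 over CAT3 was 1.26 and 1.44, then 8.96 and 7.97, then 39.6 and 20.5, and APX1 over CAT3 was 0.256 and 0.232, then 1.63 and 1.71, then 12.3 and 7.02. With sums APX1 over CSD1 was highest at 12 h, being 0.202 and 0.161 in the controls, 0.182 and 0.214 at 2 h, and 0.309 and 0.342 at 12 h. CCS over CSD1 was 1.15 and 0.986, 1.43 and 2.07, and 1.45 and 1.55, so the 2 h and 12 h groups overlapped and the peak at 2 h was smaller, a log2 change of 0.69 by 2 h and of -0.20 from 2 h to 12 h. The further rows of the CCS, CAT3 and RCI3 components held at most 21 counts in a library and none was tested, and the GSTU18 component has a single row.

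The gap between the 2 h replicates was compared with that of other unigenes. Replicate 2 exceeded replicate 1 by 1.10 on the log2 scale for CSD1, a gap exceeded in size by 3.82% of 9108 unigenes, and by 1.01 for APX1, exceeded by 5.06%. For CCS it was 0.31, for GSTU18 -0.59, for RCI3 -0.67 and for CAT3 -0.06. For all 6, replicate 2 lay further in the direction of the change at 12 h, by little for CAT3, although among 4020 unigenes changed at 12 h with at least 10 CPM this held for only 37.9%. With rows of a component summed, the gap was 0.00322 for APX1 and -0.23 for CSD1, the latter turned to the other side.

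A further 6 unigenes of the tables used here are annotated as scavenging enzymes, and like all the lists below they come from what the study listed as changed from the same libraries, so their counts are not independent evidence. Of the 5 tested, none rose and 1 fell at 2 h, and 4 rose and 1 fell at 12 h, with a median log2 fold change of 0.46 and 1.38, where 24.1% of all unigenes were called at 2 h and 48.6% at 12 h. Of the 4 up at 12 h, c118694_g1 and c140787_g3 entered the test only through the 12 h libraries. The others up at 12 h were c147035_g1 and SRX. Both c147035_g1 and c118694_g1 are rows of the CSD1 and APX1 components described above. Whether they stand for enzymes apart from the members was not tested. An unadjusted p and DESeq2 also gave 0 up at 2 h. The count up at 2 h was 1 with library totals alone, with at least 10 counts in every library, with only the 4 libraries compared, with no minimum fold change, and without control replicate 2 or heat 2 h replicate 2. The count down at 2 h was 0 without control replicate 1, and the count down at 12 h was 2 without either library of heat 2 h. SRX (c128465_g1), sulfiredoxin, which repairs overoxidised peroxiredoxins, measured 20.6 and 21.8 CPM without heat, 33.4 and 25.1 CPM at 2 h, and 56.4 and 54.4 CPM at 12 h, and it rose at 12 h (log2 1.38, SE 0.19, adjusted p = 6.84e-05 from edgeR). Another unigene annotated as RCI3, c140787_g3, was scarce as well. It held 1 and 5 counts in the controls, 4 and 1 at 2 h, and 21 and 21 at 12 h (log2 2.92, SE 0.64, adjusted p = 0.00192 from edgeR). It too passed the filter only through the group where it was high, here 12 h, so the call is not read as a rise. PER1 (c153653_g1), whose match to a 1-cysteine peroxiredoxin is weak, fell from 11.3 and 8.23 CPM to 5.14 and 2.28 CPM at 2 h and 0.339 and 1.52 CPM at 12 h (log2 -3.32, SE 0.55, adjusted p = 0.000268 from edgeR). The untested c131017_g1, a weak match to a class III peroxidase, had 14 and 10 counts in the controls, 2 and 7 at 2 h, and 2 and 2 at 12 h. Of the class III peroxidases, c128946_g1 and c131017_g1 were lower in every heat library than in the controls, and c140787_g3 was higher in both libraries of 12 h than in all others. Groups stood apart for 66.4% of all unigenes tested at 2 h, 82.5% at 12 h and 73.4% between the times. At these low counts no direction is read for the class.

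Most of the other glutathione S-transferases went down as GSTU18 did. Of 9 listed 8 were tested, and 1 rose and 4 fell at 2 h, whereas none rose and 7 fell at 12 h (0 up with an unadjusted p and with DESeq2). Over all unigenes tested, 15.1% rose and 8.98% fell at 2 h, and 25.3% rose and 23.3% fell at 12 h. Their median log2 fold change was -1.07 at 2 h and -2.64 at 12 h. Among those down at 12 h were c135009_g1 (25 and 16 counts in the controls, 3 and 4 at 12 h) and c124692_g1 (18 and 16, then 0 and 4). Neither would have passed the filter on low counts without the controls, the group where they were high. c135009_g1 was also called down at 2 h. These calls are in the counts above but are not taken as support. Without control replicate 1 the counts down were 2 at 2 h and 4 at 12 h. A unigene named GSTU17, c130722_g1, had 20.9 and 24.6 CPM in control leaves, 6.22 and 6.72 CPM at 2 h, and 0.339 and 1.06 CPM at 12 h (log2 -4.95, SE 0.38, adjusted p = 5.86e-07 from edgeR). Another GSTU17, c141181_g1, fell from 91 and 124 counts to 28 and 34 at 2 h and to 3 and 0 at 12 h (adjusted p = 3.34e-06 from edgeR), with the control level 64.5 times that of 12 h (95% exact counting interval 21.8 to 315), and c143209_g3 fell by 3.08 at 12 h. The unigene c150779_g1, like c135565_g1 named GSTU18, was at -0.59 at 2 h without passing (adjusted p = 0.0773 from edgeR) and fell by 2.01 at 12 h. Not all were lower at 2 h, as shown by 3 unigenes named here after their values were seen. A GSTU17, c129310_g1, had 2 and 4 counts in the controls, 37 and 15 at 2 h and 7 and 8 at 12 h. It was called up at 2 h (log2 2.86, SE 0.62, adjusted p = 0.00369 from edgeR), having passed the filter only through the 2 h libraries. The untested GSTU25, c137698_g1, had 2 and 0 counts, then 21 and 9, then 2 and 2, and a GSTU18, c141181_g2, was at 0.44 at 2 h without passing (adjusted p = 0.407 from edgeR). The count up at 2 h was 2 with no filter, and also without control replicate 1, heat 2 h replicate 2 or either library of heat 12 h.

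**Figure D4:**
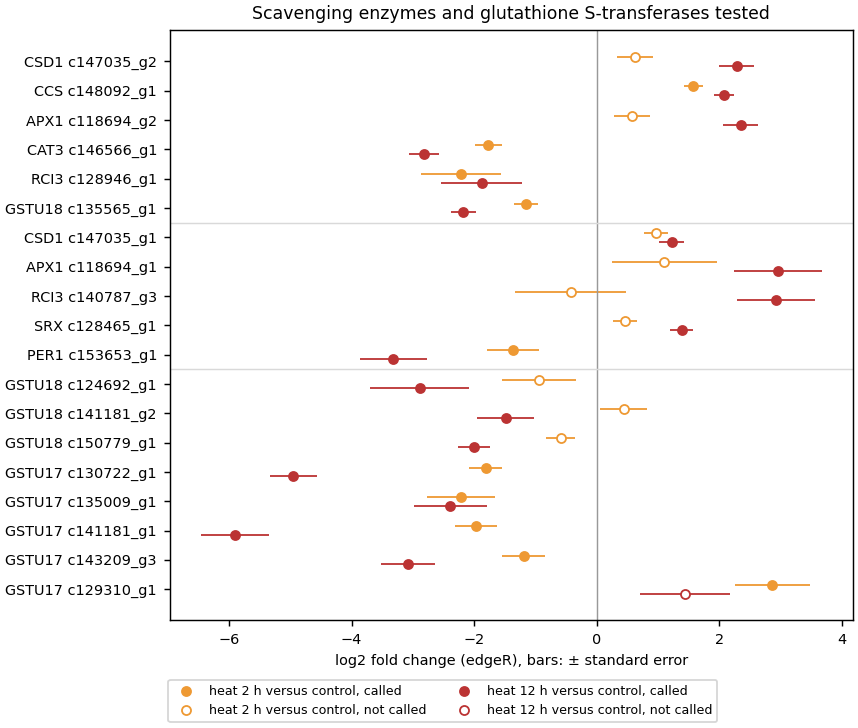
Log2 fold change against the controls (edgeR, bars are ± 1 standard error (SE)) at 2 h (orange) and 12 h (red). The 6 scavenging enzyme unigenes are at the top, 5 other scavenging enzyme unigenes in the middle and 8 other glutathione S-transferases at the bottom. Further rows of the CSD1 and APX1 components are among the middle 5. Filled points were called. At 12 h 3 of the top 6 lie right of 0 and 3 left of it, and 7 of the 8 glutathione S-transferases at the bottom lie left of 0 at 12 h.

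Thioredoxin-like unigenes, which pass reducing power on to other proteins, were few. Of 5 tested, none rose and 1 fell at 2 h (0 up with an unadjusted p and with DESeq2), and 2 rose and 2 fell at 12 h, beside 24.1% and 48.6% of all unigenes called. Both unigenes of ACHT4, an atypical thioredoxin of the chloroplast in Arabidopsis, were not called at 2 h (log2 -0.26 and -0.91) and were the lowest at 12 h. c139548_g1 had 24.0 and 30.2 CPM in control leaves, 22.6 and 22.7 CPM at 2 h, and 0.508 and 0.912 CPM at 12 h (log2 -5.20, SE 0.33, adjusted p = 1.27e-07 from edgeR). Its component mate c139548_g2 fell by 4.57 at 12 h. The thioredoxin superfamily members c142752_g1 and c150833_g1 rose at 12 h, by 1.30 and 1.03. Without heat 12 h replicate 1, 1 rose at 12 h, and without control replicate 1 or heat 2 h replicate 2, 2 fell at 2 h.

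Enzymes that form hydrogen peroxide did not share a direction. ACX3 (c146857_g1), an acyl-CoA oxidase of peroxisomal fatty acid breakdown, had 46.7 and 47.5 CPM in control leaves, 266 and 212 CPM at 2 h, and 123 and 121 CPM at 12 h. It rose at 2 h (log2 2.34, SE 0.17, adjusted p = 6.11e-07 from edgeR) and at 12 h (log2 1.37, SE 0.16, adjusted p = 2.02e-05 from edgeR), while CAT3, of the same organelle, fell at both times. AAO4 (c155997_g1), an aldehyde oxidase, fell by 1.34 at 2 h and by 2.07 at 12 h. A copper amine oxidase (c136537_g1) fell by 1.34 at 2 h and stood at -0.26 at 12 h, which did not pass (adjusted p = 0.197 from edgeR). PEX6 (c156444_g1), a peroxin needed for import into peroxisomes, was at -0.80 at 2 h, under 2-fold, and fell by 1.62 at 12 h. Of these 4, 1 rose and 2 fell at each time, where 24.1% of all unigenes were called at 2 h and 48.6% at 12 h, so that with 4 unigenes the counts say little of the list.

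The unigenes whose log2 CPM ran closest to each enzyme over the 6 libraries were sought among 790 named unigenes with a mean of at least 10 CPM. The likeness is Pearson's r, given as a description, since the points share libraries, 3 groups and the gap between the 2 h replicates. For CSD1 the nearest were ERD4 (c149041_g1, r = 0.998), a protein responsive to dehydration, and STT3B (c154975_g1, r = 0.996), a subunit of the oligosaccharyltransferase. ERD4 was also among the 2 nearest to APX1 (r = 0.995), beside TPS7 (c137648_g1, r = 0.995), named for trehalose phosphate synthesis. Those nearest to CCS were a member of the histidine kinase, DNA gyrase B and HSP90-like ATPase family (c149874_g1, r = 0.998) and CPN10 (c144578_g1, r = 0.998), the co-chaperonin of the organelles. CPN10 had 13.5 and 10.8 CPM in control leaves, 94.7 and 113 CPM at 2 h, and 238 and 213 CPM at 12 h. CAT3 ran with PGL1 (c146362_g1, r = 0.999), a 6-phosphogluconolactonase of the pentose phosphate pathway, and with the cyclin CYCA1;1 (c154389_g1, r = 0.997). GSTU18 ran with an NAD(P)-linked oxidoreductase (c135651_g1, r = 0.993) and the glucosyltransferase UGT85A2 (c156395_g1, r = 0.993). For RCI3, with its few counts, the nearest were less close, FRO2 (c156121_g1, r = 0.958), a ferric reductase, and a dirigent-like protein (c150003_g1, r = 0.941).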

How the data were processed

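Leaf RNA libraries were made with the NEBNext Ultra kit and sequenced as paired ends, and strand use in counting is not given in the sources used here. Reads had been assembled with Trinity, and the authors deposited expected counts per unigene, unscaled, in 1 table (0.157% of values are not whole). The paper's methods name RSEM for these values, whereas the submitters' processing notes name TopHat2 2.0.12, Bowtie2 2.2.3, HTSeq 0.6.1 and DESeq 1.18.0. Names come from the study's tables of changed unigenes, of which 1472 rows were used. They gave 1945 named unigenes, 1859 of them tested. No unigene sequences were used here.

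Counts were rounded, filtered by filterByExpr (minimum count 10), scaled by TMM and fitted over all 6 libraries by the quasi-likelihood method of edgeR 4.0.16 in R 4.3.3, with 1 coefficient per group, 3 residual degrees of freedom and a common dispersion of 0.0271. The unigenes tested held 97.7 to 98.4% of the counts. Adjustment followed Benjamini and Hochberg over 28005 unigenes. The call asked for a change of 2-fold or more with an adjusted p no higher than 0.05, the thresholds that the study set for DESeq. Standard errors were taken from the fold change and its F statistic. The steps were tested on simulated data, with changes set in a small part of the unigenes and at 2 h alone. That test therefore cannot speak for the scaling where many unigenes change, as here. P-values from edgeR rest on the spread between the 2 libraries within groups, estimated jointly over all 3 groups and drawn towards that of other unigenes. The wider spread at 2 h therefore also enters the comparison of 12 h with the controls. Both comparisons with heat share the control libraries. Counting intervals cover counting error only.

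Ratios were taken as log2 with 0.5 added to each count, and tested by the exact two-sided permutation test. Ratios printed per library are of the rounded, unscaled counts, each with the same 0.5 added. The members and lists were chosen with earlier results of these data known. Named are the 6 members, every further scavenging enzyme, the 4 unigenes of each other list with the smallest adjusted p at 12 h, tested rows of the members' components, and the 2 nearest named profiles (log2 CPM, prior count 2). Alternatives were RLE factors, library totals alone, other filters, DESeq2 1.42.0, fits of only the groups compared, a replicate block, no minimum fold, unadjusted p, each library left out, and summed components (chosen after seeing the data).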

Additional observations from a re-analysis of the deposited data

Results flagged for a closer look

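For 4 of the 6 unigenes the response at 12 h differed from that at 2 h in the direct comparison of the heat groups (edgeR, adjusted over all unigenes). Of all unigenes tested, 35.8% were called in that comparison. The difference, 12 h minus 2 h on the log2 scale, was 1.654 for CSD1 (c147035_g2) and 1.78 for APX1 (c118694_g2), both higher at 12 h in 2 of 2 libraries. It was -1.044 for CAT3 (c146566_g1) and -1.025 for GSTU18 (c135565_g1), both lower at 12 h in 2 of 2 libraries. These 2 lay near the 2-fold limit. They were under it with DESeq2 (-0.96 and -0.93), with RLE size factors (-0.95 and -0.93) and without heat 2 h replicate 1 (-0.996 and -0.69). The values for CSD1 and APX1 rest on rows whose share of their component differed between the 2 h replicates, and with the component's rows summed they were 0.70 and 1.42. Whether reads were split between rows was not tested.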

How the results depend on the processing

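Of 284 recomputed fold changes of the 6 unigenes, 254 kept their direction and their side of the threshold. Counts were taken as kept when equal or within 1.5 times. That held for 82 of 90 counts of members called and 392 of 450 counts over the other lists. Ratios have no threshold, and a change of a ratio was taken as kept when it moved by no more than the larger SD of the groups compared. This is easier to meet where replicates differ more, and it held for 78 of 84. The 84 include 12 taken as differences within replicate numbers, which could not differ by construction. The 284 include fold changes under an unadjusted p and under no minimum fold change. Both reuse the main fit with a looser rule, so no fold change could move and no call could be lost there. Between 12 h and 2 h no member was called down (0) with RLE size factors, where CAT3 was at -0.95 and GSTU18 at -0.93, or with DESeq2, where they were at -0.96 and -0.93. GSTU18 at 2 h was at -0.999 with library totals alone. RCI3 at 12 h was at -1.88 (adjusted p = 0.0747, edgeR) with no filter, and with DESeq2 it was at -2.34 at 2 h and -1.86 at 12 h, neither called. With no minimum fold change CCS was called between 12 h and 2 h at 0.49. A minimum of 10 counts in every library left 3262, 6010 and 4216 unigenes called at 2 h, at 12 h and between them, against 6750, 13609 and 10028, since fewer unigenes were tested. Library totals alone moved the median over all unigenes tested to log2 changes of 0.20, -0.11 and -0.36, from 0.05, 6.4e-05 and -0.09, and the split of calls at 2 h to 4971 up and 1822 down from 4236 and 2514, and between 12 h and 2 h to 3280 and 7327 from 4526 and 5502.

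With the rows of a component summed, a choice made after seeing the data, APX1 passed at 2 h (1.01) and CSD1 did not between 12 h and 2 h (0.70). The log2 change of CSD1 over CAT3 was 4.40 at 12 h and 1.75 between the times. CCS over CSD1 turned to 0.50 at 12 h and was -0.20 between the times, and APX1 over CSD1 was 0.85 and 0.72. By construction, these sums add the counts of c147035_g1, c118694_g1 and c118694_g3.

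Leaving out 1 library at a time, members called up at 2 h ranged from 1 to 3, members called down at 2 h from 1 to 3 and members called down between 12 h and 2 h from 0 to 2. At 2 h the log2 fold change ranged from -0.050 to 1.09 for CSD1 and from -0.045 to 1.01 for APX1, the reversed values both without heat 2 h replicate 2, from -2.89 to -1.81 for RCI3 and from -1.47 to -0.90 for GSTU18. At 12 h it ranged from -2.72 to -1.27 for RCI3. Between 12 h and 2 h it ranged from -1.47 to -0.67 for CAT3, from -0.48 to 1.03 for RCI3, which was negative without heat 12 h replicate 1 (-0.48) and without heat 2 h replicate 2 (-0.05), and from -1.25 to -0.69 for GSTU18.

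Replicate numbers recur in each group, but libraries of the same number did not deviate together (correlations of -0.05, 0.04 and -0.04 between groups), so they were not taken as pairs. A fit with a replicate block called 6340, 13283 and 9611 unigenes and changed no call of a member. Taken as differences within replicate numbers, the ratios changed by the same amounts by construction, since every group holds both numbers. That alternative therefore says nothing about pairing.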
